A study of Mus musculus with 2 samples.

Results

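Peptide hormone genes of the stomach (Ghrl, Sst, Gast, Cck, Gcg and Nts), the chromogranin genes Chga and Chgb, and the cholecystokinin receptor genes Cckar and Cckbr were compared between pyloric cells with high and low Lgr5 reporter signal. They were taken as every probe whose gene name in the array files was one of these symbols, which gave 10 genes, with 15 probes on 42 spots, of 27725 genes with 41174 probes on 43379 spots. The cells of both populations carried the Lgr5-EGFP-ires-CreERT2 knock-in, by which green fluorescent protein (GFP) and a tamoxifen-dependent Cre recombinase are made from the locus of the stem cell marker Lgr5. The pylorus, the lower end of the stomach, was taken from 20 such mice, the tissue of the mice was pooled and dissociated with trypsin, and flow sorting collected GFPhigh cells, with bright GFP, and GFPlow cells, with dim GFP. No age and no agent given to the mice are stated in the sources used here, and no cells without GFP were compared, so GFPlow is a dim reporter population and not a population without Lgr5. Total RNA of both populations, 150 ng each, was amplified and hybridised as pairs on 2 arrays with the dyes exchanged, GFPhigh being green (Cy3) on the first array, called array 1, and red (Cy5) on the other, called array 2.

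The hormone genes stand for different endocrine cells of the gut lining. Gastrin (Gast) is the hormone of antral G cells and drives acid secretion, somatostatin (Sst) is the inhibitory peptide of D cells, and ghrelin (Ghrl) is the appetite-stimulating hormone of X/A-like cells. Cholecystokinin (Cck), proglucagon (Gcg) and neurotensin (Nts) are better known from endocrine cells of the intestine, and chromogranins are acidic proteins that fill the dense-core granules in which such cells store peptides. Cckbr encodes the receptor that binds gastrin and cholecystokinin, and Cckar encodes the receptor that prefers cholecystokinin, known from pancreatic acinar cells, gallbladder muscle and vagal nerve endings; both couple to Gq and raise calcium in the cell.

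Of the 10 genes, 4 (Ghrl, Sst, Chga and Chgb) exceeded 2-fold towards GFPlow on each array, against 2.69% of all compared genes, and 0 exceeded it towards GFPhigh on each array, against 1.76%. Gast was brighter in GFPlow but passed 2-fold on 1 array only, and Cckar was brighter in GFPhigh and also passed on 1 array only. Cck, Gcg, Nts and Cckbr gave too little signal to be compared. Each population gave 1 RNA sample, and the 2 arrays repeat its measurement. Therefore the SD given with each log2 ratio holds technical error only (n = 2 arrays), and no p-value was possible. In RNA of sorted populations, fewer cells of a type and less RNA per cell cannot be told apart.

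The probes of Ghrl show which RNA was measured. Each covers genomic positions wider than its 60 bases in the coordinates of the deposited annotation (mouse build mm9), so each joins sequence from both sides of an intron and matches spliced ghrelin messenger RNA. Probe A_51_P464000 corresponds to bases 262 to 321 of the transcript and to chr6:113667101-113669108, and probe A_52_P675556 to bases 332 to 391 and to chr6:113666248-113667090. A probe of Cckbr, A_51_P506201, also crosses an intron, at bases 586 to 645 and chr7:112582327-112582546. The 3 sequences are shown 5′ to 3′ in lower case because they are the probes of these genes that span an intron.
Ghrl A_51_P464000: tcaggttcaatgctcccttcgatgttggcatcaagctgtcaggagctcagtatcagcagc
Ghrl A_52_P675556: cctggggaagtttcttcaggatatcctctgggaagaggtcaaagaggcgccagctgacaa
Cckbr A_51_P506201: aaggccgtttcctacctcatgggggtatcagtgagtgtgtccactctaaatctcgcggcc

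Among the genes counted as higher in GFPlow, Sst, Chga and Chgb share a short promoter sequence, which Ghrl lacks. Its share among all genes counted as higher in GFPlow was not determined. The 250 bases before the annotated gene start were taken from RefSeq (GRCm38.p6) for 9 of the 10 genes, in 12 windows, and searched on both strands for TGACGTCA, the palindromic cyclic AMP response element, and for its core TGACGT, which every full element contains. The core was found in the windows of these 3 genes and in none of those of Ghrl, Gast, Cck, Gcg, Nts or Cckbr. That is 3 of 12 windows, against 6.47% of 32851 windows of all genes. Only exact matches were searched for. Cck, Gcg, Nts and Cckbr were too dim to be compared, so the lack of the core cannot be set against a ratio for them. The full element was found in Sst, starting 48 bases before the gene start, and in Chgb, 72 bases before it, against 1.55% of all windows. In Chga the core starts 44 bases before the gene start. The windows are printed 5′ to 3′ on the strand of the gene, with the full element or the core in capitals, for chr16:23890845-23891094 on the minus strand (Sst), chr12:102554691-102554940 on the plus strand (Chga) and chr2:132781392-132781641 on the plus strand (Chgb).
Sst: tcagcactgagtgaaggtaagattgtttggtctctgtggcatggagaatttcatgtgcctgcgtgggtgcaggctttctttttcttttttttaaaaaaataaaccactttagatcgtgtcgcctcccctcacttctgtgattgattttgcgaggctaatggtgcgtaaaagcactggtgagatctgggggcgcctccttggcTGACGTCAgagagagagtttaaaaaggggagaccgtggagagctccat
Chga: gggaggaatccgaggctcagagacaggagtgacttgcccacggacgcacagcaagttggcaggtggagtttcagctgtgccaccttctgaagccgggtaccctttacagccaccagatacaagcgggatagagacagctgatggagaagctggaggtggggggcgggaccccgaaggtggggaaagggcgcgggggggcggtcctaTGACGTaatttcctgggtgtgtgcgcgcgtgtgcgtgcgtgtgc
Chgb: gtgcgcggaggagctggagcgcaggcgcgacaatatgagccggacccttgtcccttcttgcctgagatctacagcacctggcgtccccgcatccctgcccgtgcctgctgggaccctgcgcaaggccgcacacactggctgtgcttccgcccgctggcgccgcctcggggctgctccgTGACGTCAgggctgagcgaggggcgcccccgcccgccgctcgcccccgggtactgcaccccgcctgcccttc
The TATA box core TATAA, searched on the gene strand, was found in Gast, 26 bases before the gene start, and in Gcg, 24 bases before it, against 16.0% of all windows. The GC box GGGCGG, on both strands, was found in Chga and Chgb (32.7% of all windows) and the E-box CATCTG, on both strands, in Cck and Gcg (14.4%). The 4 windows of Ghrl held none of these 5 motifs. A match is a description of the letters in the window, and binding was not measured.

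On the 2 arrays 7830 genes could be compared, namely where the brighter of the populations had a signal well above background each time. The arrays correlated over their 9499 probes, which are not independent replicates, at 0.595 (Pearson) and 0.474 (Spearman), and the array-to-array difference had an SD of 0.56 in log2. The share of gene spots with such a signal was 28.6% for GFPhigh and 25.1% for GFPlow on array 1, and 18.7% and 31.7% on array 2. Lgr5, which checks the sort, was 4.86-fold higher in GFPhigh, with log2 ratios of 2.33 and 2.24 (mean 2.28 ± 0.06), and under median centring, at 1.80, it missed 2-fold on 1 array. This check rests on 1 probe. Another Lgr5 probe read between 39.2 and 48.6 above local background, did not enter the comparison, and had log2 ratios of -0.05 and 0.19. Of 5 epithelial markers, 5 were measured in both populations, while 0 of 4 endothelial and 0 of 6 leukocyte markers were above background on both arrays in either. The epithelial markers were not all alike: Krt19 was counted in GFPlow at -2.24 ± 0.04, and Krt8 was at -1.19 ± 0.98. Epcam was at 0.12 ± 0.51 and Cdh1 at -0.16 ± 0.11. In all, 211 genes were counted in GFPlow and 138 in GFPhigh. With each array centred on its median the split was 215 against 10, and with centring on spike-in RNA 1642 against 21, so these counts and every direction below are relative to the average gene. The median of all genes was -0.06, and it moved to -0.49 and -0.81 under these centrings.

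Ghrl had one of the largest ratios towards GFPlow of all compared genes. On array 1 the net brightness of probe A_52_P675556, the mean signal less the local background, was 820.6 for GFPhigh and 6543 for GFPlow. On array 2 it was 595.3 for GFPhigh and 13900 for GFPlow. GFPlow was the brighter population with either dye, and all 4 readings were well above background. The median net log2 ratio of all compared probes was 0.35 on array 1 and -1.77 on array 2. Brightness before normalization thus leaned towards GFPlow on array 2 in general. After dye normalization the log2 ratio of GFPhigh over GFPlow was -3.32 on array 1 and -2.32 on array 2, and the mean of -2.82 ± 0.71 is 7.06-fold towards GFPlow. Only 10 of 7830 genes had a mean ratio further towards GFPlow. The arrays differed by 1.01, more than the SD of 0.56 over all probes, with 10.02-fold on array 1 and 4.98-fold on array 2, so the size of the difference is less firm than its direction.

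The other ghrelin probe, from a neighbouring stretch of the same transcript, gave nearly the same mean. Its net brightness was 566.1 for GFPhigh and 3752 for GFPlow on array 1, and 233.4 for GFPhigh and 6388 for GFPlow on array 2. The log2 ratios of this probe, A_51_P464000, were -3.05 and -2.62, with a mean of -2.84 ± 0.30, or 7.14-fold. Both ghrelin probes were thus lower in GFPhigh on both arrays, and the probes differed less than the arrays did.

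**Figure D1:**
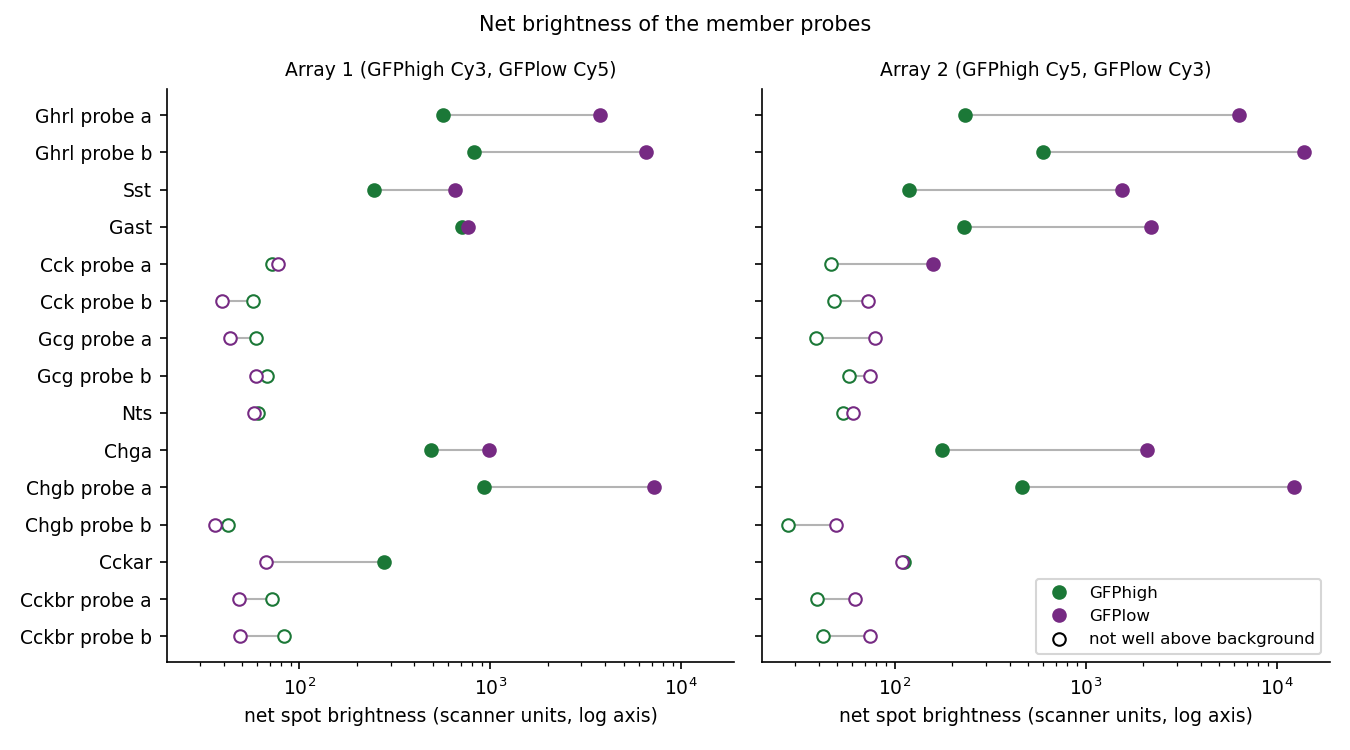
Net brightness of each probe of the 10 genes in scanner units on a log axis, for array 1 and array 2, with GFPhigh in green and GFPlow in purple. Filled points were well above background. Both ghrelin probes, Sst, Chga and 1 Chgb probe lie to the right for GFPlow on both arrays, while Cckar is to the right for GFPhigh on array 1 and nearly equal on array 2 (111.3 against 109.1). The median of all compared probes also lay towards GFPlow on array 2, at a net log2 ratio of -1.77.

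Sst, the somatostatin gene, was lower in GFPhigh on both arrays, by almost the same amount after dye normalization. Its probe, at chr16:23889776-23889835, had a net brightness of 246.6 for GFPhigh and 650.1 for GFPlow on array 1, and of 118.7 and 1556 on array 2. Before dye normalization the log2 ratios were -1.40 and -3.71, and with median centring they were -1.375 and -3.14. After dye normalization they were -1.66 and -1.70, so the closeness of the arrays rests on that step. The mean of these normalized ratios, -1.68 ± 0.03 or 3.21-fold towards GFPlow, placed Sst 81st of 7830 genes. This probe is printed on 10 spots. On array 1 the 10 spots ran from -1.92 to -1.37. On array 2 the 7 spots left after 3 outlier spots ran from -2.001 to -1.49. Every used spot was past 2-fold towards GFPlow, and the SD between spots, 0.17 on array 1 and 0.21 on array 2, was larger than the difference between the array means.

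Gast, the gastrin gene, was lower in GFPhigh on both arrays but by unequal amounts. Its net brightness at chr11:100197806-100197865 was 708.8 for GFPhigh and 765.9 for GFPlow on array 1, and 230.7 for GFPhigh and 2194 for GFPlow on array 2. Before dye normalization the populations were therefore nearly equal on array 1 and far apart on array 2, while the median log2 ratio of all compared probes was 0.35 on array 1 and -1.77 on array 2. After normalization the ratio was -0.49 on array 1, 1.41-fold, and -1.25 on array 2, 2.38-fold, with a mean of -0.87 ± 0.54. The difference between the arrays, 0.76, was nearly as large as the mean. Gastrin did not reach 2-fold on both arrays, ranked 431st of 7830 genes towards GFPlow, and was at -1.66 with centring on spike-in RNA, where it did pass on both arrays. That centring lowers every ratio by 0.78, and 1642 of 8199 genes were counted in GFPlow under it.

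The remaining hormone genes were too dim to be compared. Cck probe A_51_P137322 had a net brightness of 72.2 for GFPhigh and 77.0 for GFPlow on array 1, not well above background, and of 46.3 and 157.8 on array 2, where GFPlow alone was well above background. Its log2 ratios of -0.32 and -0.60 are given as values only. The other Cck probe ran between 39.3 and 72.8. The probes of Gcg ran between 38.8 and 78.5, and the probe of Nts between 53.6 and 60.7, with no channel well above background. One Gcg probe is printed on 10 spots, and on array 1 an outlier spot of it, left out, read 16613 for GFPhigh while its 8 used spots ran from 52.5 to 64.8. Without the outlier removal that spot would stand apart from all the other Gcg spots. A signal that was not well above background bounds these hormones from above and does not show that they are absent.

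Of the 6 hormone genes, 3 could thus be compared and 2 were counted as higher in GFPlow, with a median log2 ratio of -1.68 (-1.66 on array 1, -1.70 on array 2) beside -0.06 over all genes. All 3 had a signal well above background for each population on each array, so their signal did not pass through GFPlow alone. The median is the ratio of Sst, so its closeness between the arrays also rests on the dye normalization. Without the filter on dim probes all 6 genes entered, and the median was -0.67.

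**Figure D2:**
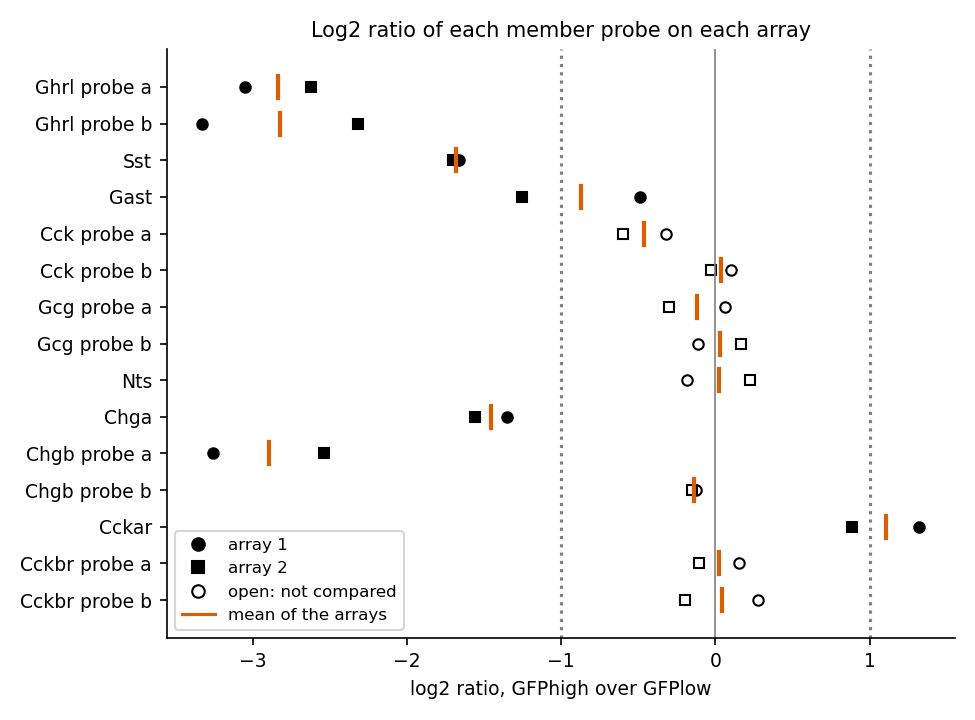
Log2 ratio of GFPhigh over GFPlow for each probe on array 1 (circles) and array 2 (squares), with the mean of the arrays as an orange bar and dotted lines at 2-fold; open symbols were too dim to be compared. Both ghrelin probes, Sst, Chga and 1 Chgb probe lie beyond the left line on both arrays, Gast and Cckar straddle a line, and all open symbols lie between the lines.

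Both chromogranin genes were lower in GFPhigh, whichever dye it carried. For Chga, at chr12:103803083-103803142, the net brightness was 485.6 for GFPhigh and 979.5 for GFPlow on array 1, and 176.1 and 2089 on array 2. The log2 ratios of -1.35 and -1.56 average to -1.46 ± 0.15, or 2.75-fold, the 121st of 7830 genes towards GFPlow. Chga is a general marker of endocrine cells, and its ratio lay between those of Sst and Gast.

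Chgb had a larger ratio than Chga. Its probe A_51_P191669, at chr2:132620703-132620762, had a net brightness of 928.6 for GFPhigh and 7160 for GFPlow on array 1, and of 465.5 and 12314 on array 2. With ratios of -3.26 and -2.54 in log2 it averaged -2.90 ± 0.51, or 7.45-fold, and 9 genes lay further towards GFPlow. All 10 spots of this probe were past 2-fold on each array, from -3.71 to -2.82 on array 1 and from -2.93 to -2.09 on array 2. The difference between the arrays, 0.72, was larger than the SD between spots of 0.27 on array 1 and 0.31 on array 2. The other probe given to Chgb, at chr2:132609590-132609649, read between 27.5 and 49.2 and was never well above background, so that Chgb rests on 1 probe. The mean ratios of Chgb and Ghrl, and those of Chga and Sst, differed by less than the SD of 0.56 between arrays. The median of both chromogranins was -2.18 ± 0.18, with -2.31 on array 1 and -2.05 on array 2.

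**Figure D3:**
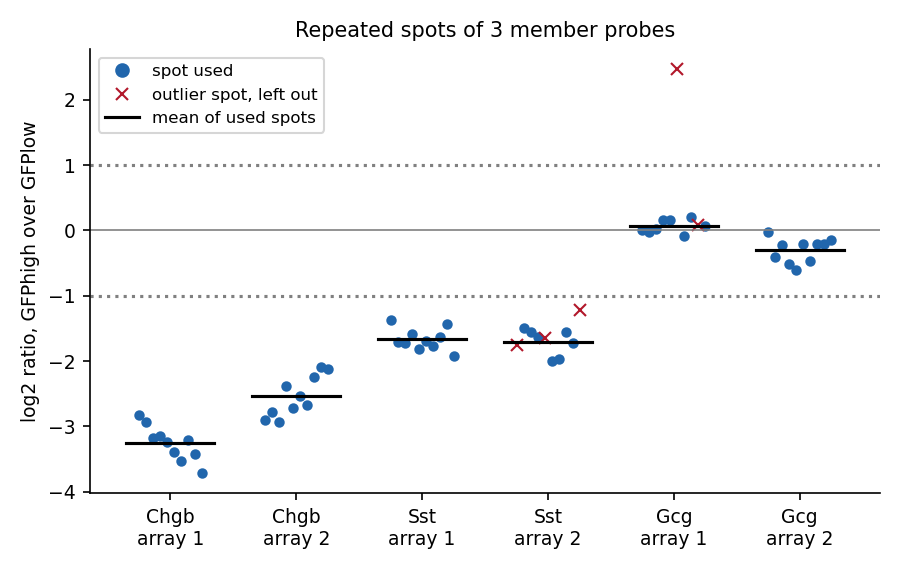
Log2 ratio of GFPhigh over GFPlow for every spot of the 3 probes printed on 10 spots each, with crosses for outlier spots left out, black lines for the mean of the used spots and sideways offsets in file order. All used spots of Chgb and Sst lie below the 2-fold line on both arrays, while those of Gcg, which were not well above background, lie near 0 apart from 1 outlier spot on array 1.

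Of the receptor genes only Cckar could be compared, and through GFPhigh alone. Cckar, at chr5:54090045-54090104, had a net brightness of 278.6 for GFPhigh and 67.1 for GFPlow on array 1, and of 111.3 for GFPhigh and 109.1 for GFPlow on array 2. GFPhigh was well above background on both arrays and GFPlow on neither. After dye normalization the log2 ratio was 1.32 on array 1, 2.49-fold, and 0.89 on array 2, 1.85-fold, and averaged 1.103 ± 0.31. GFPlow was not well above background, so its level was raised to a floor, the lowest level well above background, wherever it was lower. Against this floor Cckar was 2.09-fold higher in GFPhigh under the main settings. This is not a lower limit, since array 2 gave 1.85-fold and Cckar was at 0.75 without background correction. Since the gene was kept through GFPhigh alone, a positive mean ratio was required of it. It was not counted, since it missed 2-fold on array 2. Its raw ratio on array 2 was 0.03 before normalization, when the median of all compared probes was -1.77, so its difference on that array rests on the dye normalization. It was 0.32 with centring on spike-in RNA and 2.39 with the signals as processed by Feature Extraction, the scanner software.

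Cckbr, the gastrin receptor gene, gave no level. Its intron-spanning probe read 72.0 for GFPhigh and 48.1 for GFPlow on array 1, and 39.1 and 61.5 on array 2. The other probe, at chr7:112584581-112584640, read 83.2 and 48.8 on array 1 and 42.0 and 74.2 on array 2. For both probes the brighter population changed with the dye, and no reading was well above background. The comparison of gastrin with its own receptor was therefore not possible.

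Set against each other, the 5 compared hormone and chromogranin genes had a median ratio of -1.68 and the 1 compared receptor a ratio of 1.103. The difference was -2.79 ± 0.28 in log2, with -2.98 on array 1 and -2.59 on array 2. It compares ratios and not levels, and on the receptor side it rests on Cckar alone, on the unmeasured GFPlow level of that gene and on the dye normalization of array 2. Since Cckar could enter only with a positive mean ratio, the sign of the difference is a description and not a result about the receptors.

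**Figure D4:**
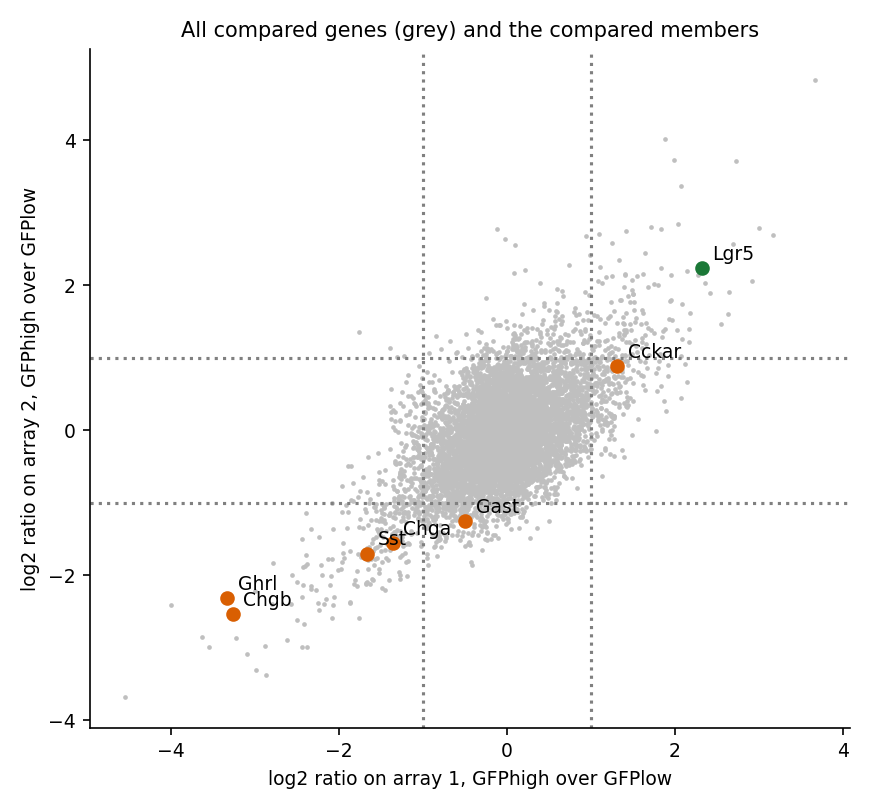
Log2 ratio of GFPhigh over GFPlow on array 1 (horizontal) and array 2 (vertical) for all 7830 compared genes in grey, with the 6 compared hormone, chromogranin and receptor genes in orange, Lgr5 in green and dotted lines at 2-fold. Ghrl and Chgb lie at the lower left edge of the cloud, Sst and Chga just past both lines, Gast past the line of array 2 alone and Cckar past that of array 1 alone.

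Other hormone genes of the gut were mostly dim. Of 18 on the array 7 could be compared, and their median was -0.23. A GFPhigh signal well above background each time was found for 3 of the 7. The others could enter only with a negative mean ratio, and the median is the ratio of Gip, which is among them. Of the 7 genes, 1 was counted towards GFPlow and 0 towards GFPhigh. The counted gene was Pyy, which encodes the satiety peptide YY, at -1.57 ± 0.03, close to Sst. With the mean of its kept probes in place of the brightest it was at -0.97 and was not counted. The enkephalin gene Penk, measured in GFPlow alone, was at -1.03 ± 0.12 and 1.75-fold higher there against the floor for GFPhigh. The secretin gene Sct, likewise measured in GFPlow alone, was at -0.55 ± 0.14 and 1.44-fold higher against that floor. Without background correction Penk was at -0.58 and Sct at -0.30. Nucb2, which encodes the nesfatin precursor, was at 0.73 ± 0.09 and stayed under 2-fold. Of 4 other granin genes on the array, 2 could be compared and 0 were counted, with Scg3 at -0.53 ± 0.03 and Pcsk1n at 0.06 ± 0.66. Scg3 gave a signal in GFPlow alone, 1.34-fold higher there against the floor for GFPhigh. It was counted with normexp offset 0 (-1.01), spike-in centring (-1.31), the processed signals (-1.995) and the value table (-1.99). Over all genes these settings counted 344, 1642, 512 and 508 in GFPlow, against 211 with the main settings.

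Genes that make the mature peptides and amines were compared next. Of 7 peptide processing genes on the array 5 could be compared and 0 were counted, with a median of -0.97. Carboxypeptidase E (Cpe) was at -1.21 ± 0.46, with 1 array under 2-fold, the prohormone convertase genes Pcsk1 and Pcsk2 were at -1.08 ± 0.19 and -0.97 ± 0.11, and the sulphotransferase gene Tpst2 was at -0.13 ± 0.62. For Pcsk1 only GFPlow gave a signal, 2.06-fold higher there against the floor for GFPhigh. Without background correction Pcsk1 was at -0.71. Of 7 genes of amine synthesis, storage and breakdown 4 could be compared, and their median was -1.02. Counted towards GFPlow were 2 and towards GFPhigh 0. The counted genes were Maob, a monoamine oxidase, at -1.35 ± 0.20, and Tph1, the enzyme that starts serotonin synthesis in enterochromaffin cells. For Tph1 only GFPlow gave a signal, 2.25-fold above GFPhigh, and the floor left this ratio unchanged. Without background correction Tph1 was at -0.74 and was not counted, and with the processed signals it was at -2.41. The decarboxylase gene Ddc was at -0.86 ± 0.30 and Maoa at -0.67 ± 0.22. In this list 1 of the 4 compared genes was above background in GFPhigh on both arrays, so the other 3 could enter only with a negative mean ratio.

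Of 14 genes of endocrine cell fate on the array 3 could be compared and 0 were counted, with a median of -0.04. The factor that starts the endocrine lineage, Neurog3, was measured in GFPlow alone and at -0.20 ± 0.06, 1.15-fold higher there. Nkx6-3, a factor of antral endocrine cells, was at 0.24 ± 0.48 and Fev, above background in GFPhigh on 1 array only, at -0.04 ± 0.47. The SD of the arrays was larger than the mean for Nkx6-3 and Fev. Neurog3 and Fev could enter only with a negative mean ratio, and the median is the ratio of Fev.

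On the receptor side, 2 of 11 further receptor genes for the hormones could be compared, the neurotensin-binding sortilin gene Sort1 at 0.37 ± 0.46 and the somatostatin receptor gene Sstr4 at 0.32 ± 0.74, and 0 were counted. Of 13 genes of Gq signalling, the pathway of both cholecystokinin receptors, 6 could be compared, with a median of 0.16. The calcium release channel gene Itpr2 was counted as higher in GFPhigh at 1.55 ± 0.29, or 2.93-fold, and 0 were counted in GFPlow. Itpr2 was not counted with median centring (0.80) or spike-in centring (0.76). The other channel genes Itpr3 and Itpr1 were at 0.27 ± 0.59 and 0.20 ± 0.27, and the protein kinase gene Prkcd was at -0.42 ± 0.03. Spike-in centring lowers every ratio by 0.78, which turns the small positive values of these lists negative.

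**Figure D5:**
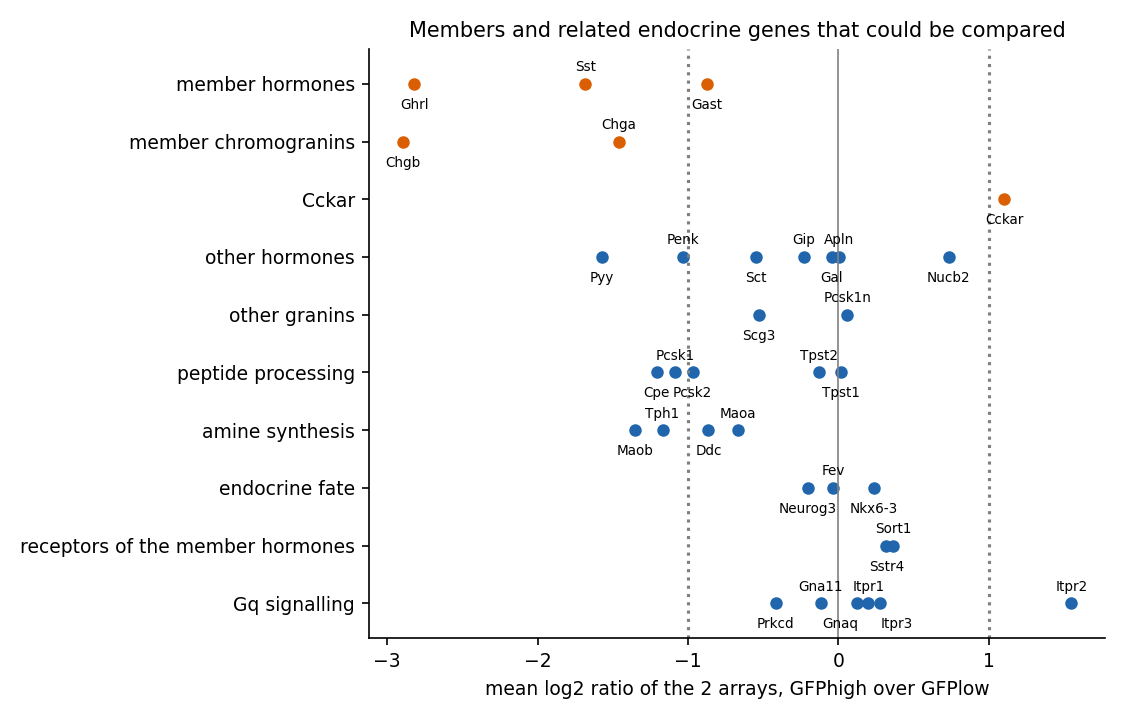
Mean log2 ratio of the 2 arrays, GFPhigh over GFPlow, for each hormone, chromogranin and receptor gene that could be compared (orange) and for the genes of 7 related lists (blue), with dotted lines at 2-fold. The orange hormones and chromogranins run from -2.90 to -0.87, while the genes of endocrine fate lie between -0.20 and 0.24 and Itpr2 lies at 1.55.

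Markers of other cells also differed between the populations, and their part in the hormone and receptor ratios was not tested. Over all compared genes, 2.69% were counted towards GFPlow and 1.76% towards GFPhigh. Of 4 surface mucous cell markers 4 were counted as higher in GFPlow, with a median of -2.77, and of 6 compared mitotic markers 5 were, with a median of -2.09. GFPhigh was well above background on both arrays for 3 of these surface mucous cell markers and 4 of these mitotic markers. The rest of both lists could enter only with a negative mean ratio. Of 4 compared chief cell markers 3 were counted as higher in GFPhigh, with a median of 2.77, as were 3 of 5 gland mucous cell markers, with a median of 1.82, and 1 of 3 parietal cell markers. Enteric neurons, which also make several of these peptides, had 2 of 6 markers above background, Uchl1 at -0.38 ± 0.04, in GFPlow alone, and Tubb3 at -0.17 ± 0.28. The neuron markers Elavl4, Ret, Prph and Snap25 were not measured. Of 6 smooth muscle markers 3 could be compared and 0 were counted, with Acta2 at -0.55 ± 0.16, Tagln at 0.41 ± 0.72 and Actg2 at 0.20 ± 0.77. The single compared marker of interstitial cells of Cajal, Ano1, was at -0.72 ± 0.14 in GFPlow alone, and that of fibroblasts, Col1a2, at 0.60 ± 0.75.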

How the data were processed

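RNA of 2 sorted populations was measured on 2 two-colour Agilent arrays with the dyes exchanged. Per the file headers, the authors deposited scanner output: for each spot and channel its mean intensity, the median intensity of the local background and a processed intensity, and for each spot the log10 ratio of processed Cy5 over Cy3. Feature Extraction is given as version 10.5.1.1 in the headers and as 9.5.3 in the submitters' processing notes. The deposited value table of the series repeats the log10 ratios, turned so that GFPhigh is the numerator, with column medians of 0.0188 and -0.0458, and served as an alternative.

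Mean intensities were corrected for local background by normexp with an offset of 50 and loess-normalized within arrays, with control spots at weight 0 (limma 3.58.1, R 4.3.3), which pulls dim ratios towards 0. The log2 ratios were turned by the dyes in the labels. Outlier spots (240 and 251 gene spots) were left out, and 0 were saturated. Repeated spots were averaged per probe. Probes entered the comparison if the brighter population exceeded background in at least 0.5 of their spots on each array, and a gene took its entering probe of highest average signal. Counted genes passed 2-fold in one direction on each array. A ratio against a floor was given where the dimmer population was below that limit on each array. This ratio sets the bright mean level against the mean of, per array, the dim level or the floor, whichever was higher. The floor is the lowest level of any probe well above background, per channel after loess and Aquantile normalization. It is not a detection limit of the probe and is open to dye bias, so the ratio against it is not a lower limit. The arrays lie on the same slide and were scanned together, so slide and scan did not differ between them. Each dye order was used on a single array, so effects of array and dye order cannot be told apart. The number of arrays limits the precision.

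Named were all 10 genes, Lgr5 and up to 4 compared genes per further list with the largest ratios. The genes and lists were chosen with earlier results of these data known. Symbols came from the files and from a RefSeq table of GRCm38.p6. Exons are not named, since no annotation of mm9 was used. Some listed genes are not reported here. The steps were tested on simulated data.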

Additional observations from a re-analysis of the deposited data

How the results depend on the processing

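Over 13 alternatives of background correction, signals, centring, filter, probe rule, threshold, value table and single arrays, Ghrl, Sst, Chga and Chgb were each counted as higher in GFPlow in all 13. These are not 13 separate checks. Genes past 2-fold on both arrays also pass at 1.5-fold and on each array alone. Dropping or tightening the filter left the ratios of these genes unchanged, and the value table nearly repeats the processed signals. Ghrl ran from -3.63 with median centring to -2.32 on array 2 alone, Chgb from -3.69 with median centring to -2.54 on array 2 alone, Sst from -2.47 with spike-in centring to -1.40 without background correction, and Chga from -2.24 to -1.26 under these same 2 settings. Gast, from -1.66 to -0.49, was counted in 2 alternatives, spike-in centring and array 2 alone. In GFPlow these counted 1642 of 8199 genes and 499 of 9123 genes. Cckar, from 0.32 with spike-in centring to 2.39 with processed signals, was counted as higher in GFPhigh in 5, namely normexp with offset 0, processed signals, the value table, 1.5-fold and array 1 alone, which gives 1 gene in place of 0, and was not measured where both populations had to be above background. The hormone median was -1.40 without background correction, -1.95 with offset 0, -2.07 with processed signals and with the value table, -2.26 with median centring, -2.47 with spike-in centring and -0.67 with no filter; single arrays gave -1.66 to -1.48. The chromogranin median was -2.37 with processed signals and with the value table, -2.88 with median centring and -2.96 with spike-in centring; single arrays gave -2.31 to -2.05. The difference between the hormone and chromogranin median and the receptor was -2.15 without background correction, -3.62 with offset 0, -4.46 with processed signals and with the value table, -3.19 with median centring and -1.74 with no filter; single arrays gave -2.98 to -2.52, and the stricter filter gave no value. Over all genes, 211 counted in GFPlow became 344 with offset 0, 512 with processed signals, 508 with the value table, 1642 with spike-in centring, 139 with both populations above background, 145 without background correction, 587 at 1.5-fold and 400 to 499 on single arrays. The 138 in GFPhigh became 213, 352, 352 and 21 under the first 4 of these settings, 10 with median centring, 93 without background correction, 438 at 1.5-fold and 349 to 371 on single arrays. The members counted in GFPlow were 4 to 5 and in GFPhigh 0 to 1 on single arrays. The 1.5-fold counts follow from the threshold; for the others the cause was not tested. No paired analysis was possible because the 2 arrays hold the same pair of RNA samples. Of the 60 named genes, 0 counted ones changed direction under the alternatives. Signal over background limits Gcg, Nts and Cckbr, for which no reading was well above background, and Cck, which had 1 such reading, GFPlow on array 2, and was at -0.60 on that array alone.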
